A study of Oryza sativa Japonica Group with 28 samples.

Results

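The genes described here are the 57 of the 45990 genes in the table that carried the gene ontology term for microtubule-based movement in the annotation deposited beside the values. The term fell into 2 classes by the molecular functions of its genes. There were 46 genes with the terms microtubule motor activity and ATP binding, called motor genes here, and 11 genes with the terms for structural molecule, GTPase and protein polymerization, called tubulin genes here. A name of kinesin genes for the whole set therefore covers the 46 motor genes and not the 11 tubulin genes. The table names genes by their locus IDs only, so members are given by ID and by class, and no individual gene name or family within the kinesins is given.

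Microtubules are hollow polymers of alpha- and beta-tubulin. Kinesins are motor proteins that use ATP to move along microtubules or to act on their ends, and flowering plants, which lack cytoplasmic dynein, use a large family of them. In dividing plant cells kinesins work in the spindle and in the phragmoplast, the microtubule array that builds the new cell wall, and in interphase they take part in the ordering of wall polymers and in organelle movement. The cereal endosperm passes early in grain development through nuclear divisions without walls, then through wall formation and cell division, and later through storage of starch and protein.

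Grains of Oryza sativa cv. Nipponbare grown in hydroponic solution were harvested 4, 8 or 16 days after flowering (abbreviated DAF), and sub-regions were cut out with a laser and sequenced as 28 libraries in 13 groups. The endosperm (EN) had 1 library at 4 DAF, 2 at 8 DAF and 2 at 16 DAF, and the aleurone layer (AL), the outer cells of the endosperm, had 3 libraries at 16 DAF. The nucellar epidermis (NE), a maternal cell layer, had 3 libraries at each stage, the ovular vascular trace (OVT), the vascular strand that feeds the grain, had 3, 2 and 1 at 4, 8 and 16 DAF, and the cross cells (CC), a green layer of the pericarp, had 2, 1 and 2. No treatment or mutant was used, each preparation pooled 3 grains, and the cDNA was amplified by PCR. A CC library with the number MM05 has 4 DAF in its title and 8 DAF as its day label and was taken as 4 DAF. The number in a title (MM13, for example) names a library here. The title prefix is X for both CC libraries of 4 DAF and for MM05 and MM06 of NE and OVT, and B for all others. The labels do not say what it stands for. The study describes the libraries of a group as biological replicates. It states that 3 were sequenced per tissue and that those with low correlation coefficients were left out. The labels name no plant or grain for a library and do not say that libraries with 1 number came from the same grains.

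Values are read numbers times 1 factor per library, a scaled signal per gene without correction for length. The estimated reads per library were 815250 to 97247991, and the EN library of 4 DAF held 14786158, more than any of the 8 other libraries of 4 DAF. The lowest number belonged to CC at 8 DAF. OVT at 16 DAF is marked as left out in the study's list of libraries and as kept in its sample label. The methods of the study count 1 OVT library of 16 DAF among the 28 used. That library had at least 3 reads for 21.6% of the tested genes. In EN at 8 and 16 DAF the 10 highest genes took 41.8 to 56.9% of the signal, against 13.2% in EN at 4 DAF. Of 12 endosperm markers, mainly of storage, 11 had at least 3 reads in the EN library of 4 DAF, and their summed level there was 238600, against 2224 to 26550 in the other libraries of 4 DAF. Most of that sum came from Os08g0345800 (108500) and Os01g0633100 (104700), without which it was 25440 in EN, against 1332 to 19460. Taken singly, 5 of the 12 were higher in EN than in all 8 other libraries of 4 DAF, 1 was lower than in all 8, and the others lay among them. The markers of the neighbouring tissues were low in that library. All 3 CC markers and some of the NE, OVT and EN markers were picked by the study from its tissue-specific genes in these same libraries. They are therefore not an independent check of what that library holds. The summed level was 45.6 for 4 NE markers (1122 to 2696 in NE of 4 DAF), 308.7 for 5 OVT markers (41540 to 42820 in OVT of 4 DAF) and 3.144 for 3 CC markers (124.4 to 279.9 in CC of 4 DAF). The NE sum came mostly from Os02g0170300 (1085, 1496 and 2518 in NE of 4 DAF, 40.88 in EN). The CC sum came mostly from Os02g0727100 (118.6 and 277.3 in CC of 4 DAF, 2.62 in EN). Each of these sums thus rests mainly on 1 gene. Os03g0727000, taken as an embryo marker, was at 0 in EN of 4 DAF and at 4130 to 6769 in OVT of 4 DAF. It was at 1157 to 6043 in later OVT and at most 4.246 in every library of the other tissues. In these data it followed OVT, so it gives no check on embryo tissue.

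The main result was a set of motor genes that were high in the endosperm at 4 DAF and at or near 0 there at 8 and 16 DAF. It was led by Os08g0558400, Os02g0742900 and Os12g0590500, which were also several times lower in every other library of the series. Os02g0742900 entered the test through EN of 4 DAF alone, so it had to be high there. A few motor genes, led by Os01g0625200, were instead highest in EN of 16 DAF, a share of the members near that of all genes. In scaled value the most abundant tubulin gene, Os03g0726100, was higher in EN than in the other tissues at all 3 stages. EN of 4 DAF is 1 library, so each of its differences rests on the assumption that it would vary as the groups with 2 or 3 libraries did.

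Nearly the whole motor set was detected in EN of 4 DAF. At least 3 estimated reads were found there for 45 of the 46 motor genes, and none was at 0. The same count was 29 and 21 in EN of 8 DAF and 18 and 20 in EN of 16 DAF, where 27 and 26 motor genes were at 0. The drop was thus in both libraries of each later stage, with no overlap with 4 DAF. The EN libraries of 16 DAF had 31126416 and 10179038 reads, on both sides of EN of 4 DAF, and 3 reads were worth 4.889 and 11.5 in them, against 1.572 in EN of 4 DAF. The part of depth and scaling in these counts was not tested. The count of detected genes fell over the endosperm stages for the whole table too, with 82.0% of the tested genes at 3 reads or more in EN of 4 DAF, 69.0% and 44.9% in EN of 8 DAF and 40.2% and 39.7% in EN of 16 DAF. The share of motor genes was 97.8% in EN of 4 DAF, 63.0% and 45.7% in EN of 8 DAF and 39.1% and 43.5% in EN of 16 DAF, so that it lay above the share of all genes at 4 DAF and on both sides of it later.

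**Figure D1:**
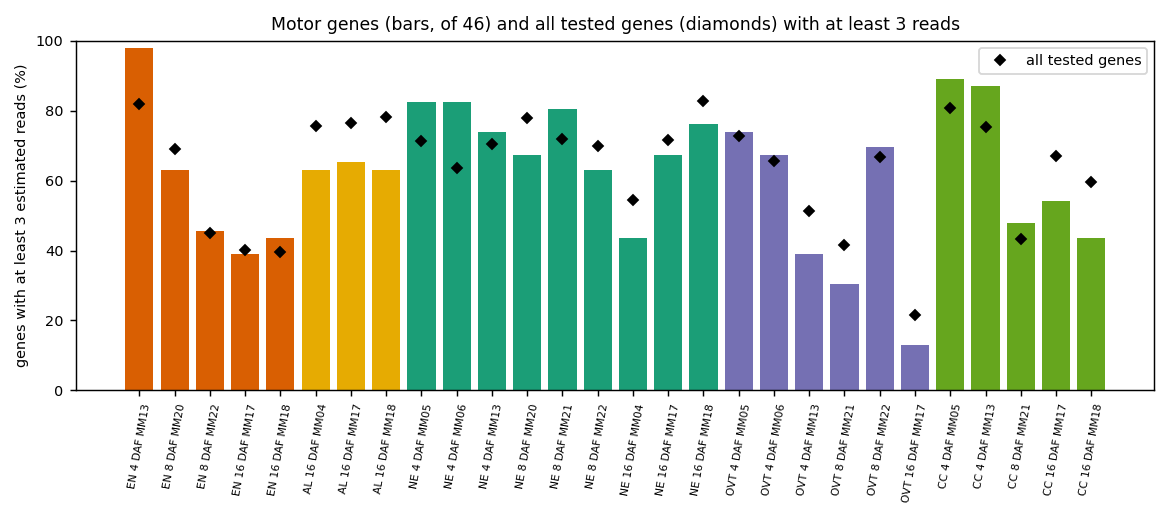
Share of genes with at least 3 estimated reads in each of the 28 libraries (y axis, percent), for the 46 motor genes (bars, coloured by tissue) and for all tested genes (diamonds). EN of 4 DAF stands at 97.8% for motor genes and 82.0% for all genes, and EN of 16 DAF at 39.1% and 43.5% for motor genes.

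The motor genes detected in the other tissues varied with stage and library. NE had at least 3 reads for 38, 38 and 34 motor genes in its libraries of 4 DAF, for 31, 37 and 29 in those of 8 DAF and for 20, 31 and 35 in those of 16 DAF. The shares of all tested genes in NE were 63.6 to 71.2% at 4 DAF, 70.0 to 78.0% at 8 DAF and 54.5 to 82.9% at 16 DAF. AL, the outer layer of the endosperm at 16 DAF, had 29, 30 and 29 motor genes with at least 3 reads, against 18 and 20 in EN of 16 DAF. CC was second to EN at 4 DAF with 41 and 40, and had 22 at 8 DAF and 25 and 20 at 16 DAF. OVT had 34, 31 and 18 at 4 DAF and 14 and 32 at 8 DAF. The lowest NE and CC libraries of 16 DAF, at 20 motor genes, were level with EN MM18 of that stage. The deepest library of the series, NE MM18 of 16 DAF with 97247991 reads, reached 35 motor genes, fewer than EN of 4 DAF. OVT of 16 DAF, with 6 motor genes, was the lowest of the series.

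The median level over the 46 motor genes was 139.9 in EN of 4 DAF, the highest of the 28 libraries. It was 11.73 and 14.43 in EN of 8 DAF and 0 in both EN libraries of 16 DAF. At 4 DAF it was 67.59, 119.0 and 53.61 in NE, 32.47, 21.37 and 3.213 in OVT and 93.86 and 72.73 in CC. The other 4 DAF libraries were therefore all below EN, with NE MM06 the nearest.

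The summed level of the motor genes gave a different order, because a few genes carry most of it. The sum was 9394 in EN of 4 DAF, 5177 and 4499 in EN of 8 DAF and 9849 and 15690 in EN of 16 DAF. As a share of all signal in the library it was 0.121% in EN of 4 DAF, 0.0325% and 0.0168% in EN of 8 DAF and 0.0194% and 0.0402% in EN of 16 DAF. The scaled sum was thus highest in EN at 16 DAF and the share at 4 DAF. Os01g0625200 alone gave 2516 and 6799 of the sums at 16 DAF. In CC of 4 DAF the share was 0.189% and 0.146%, above that of EN of 4 DAF, and in NE of 4 DAF it was 0.109%, 0.164% and 0.119%, around it. The tubulin genes summed to 95840 in EN of 4 DAF, 199800 and 131600 in EN of 8 DAF and 175200 and 52720 in EN of 16 DAF. The lowest of these EN sums, of MM18 at 16 DAF, lay within the range of the other tissues, which reached 60670. As a share of all signal the tubulin genes held 1.24% in EN of 4 DAF. That share was 1.26% and 0.49% in EN of 8 DAF and 0.345% and 0.135% in EN of 16 DAF. On this measure EN of 16 DAF lay below CC of 16 DAF (0.758% and 0.734%), and NE MM20 of 8 DAF reached 1.13%. The scaled tubulin sum and the share thus gave different orders. In bulk samples such as these, fewer cells of a type and less RNA per cell cannot be told apart.

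**Figure D2:**
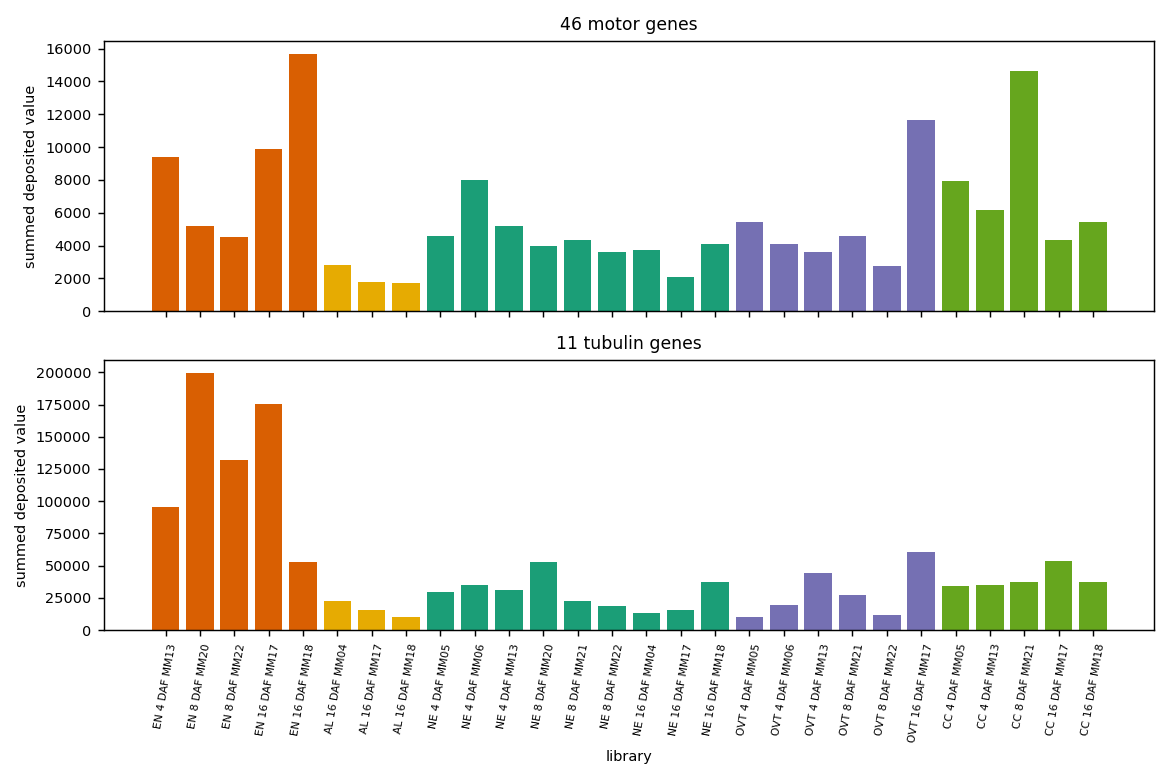
Summed deposited value (y axes) of the 46 motor genes (upper panel) and the 11 tubulin genes (lower panel) in each library, coloured by tissue. The motor sum is highest in an EN library of 16 DAF (15690) and the tubulin sum in EN libraries of 8 DAF (199800 and 131600) and 16 DAF (175200).

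Of the 57 members, 18 had their highest group mean in EN of 4 DAF (15 motor and 3 tubulin genes), which was 31.6%, against 8.8% of all tested genes. CC of 8 DAF was next with 10 members (17.5%, against 12.4% of all tested genes), EN of 16 DAF had 7 (12.3%, against 9.21%) and OVT of 16 DAF had 6 (10.5%, against 10.4%). The last 2 were close to the share of the table. AL and OVT of 4 DAF were the highest group for none. A group of 1 library reaches an extreme mean more easily than a group of 3, and EN of 4 DAF, CC of 8 DAF and OVT of 16 DAF are such groups. In the EN library of 4 DAF, 8 members had a value above all 27 other libraries, where 4.67% of the tested genes did. These were the motor genes Os02g0742900, Os04g0467901, Os08g0558400, Os12g0590500, Os04g0375900 and Os03g0114000 and the tubulin genes Os07g0574800 and Os05g0413200. Os02g0742900 and Os04g0467901 passed the filter on low values through that library alone, so they had to be high there.

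**Figure D3:**
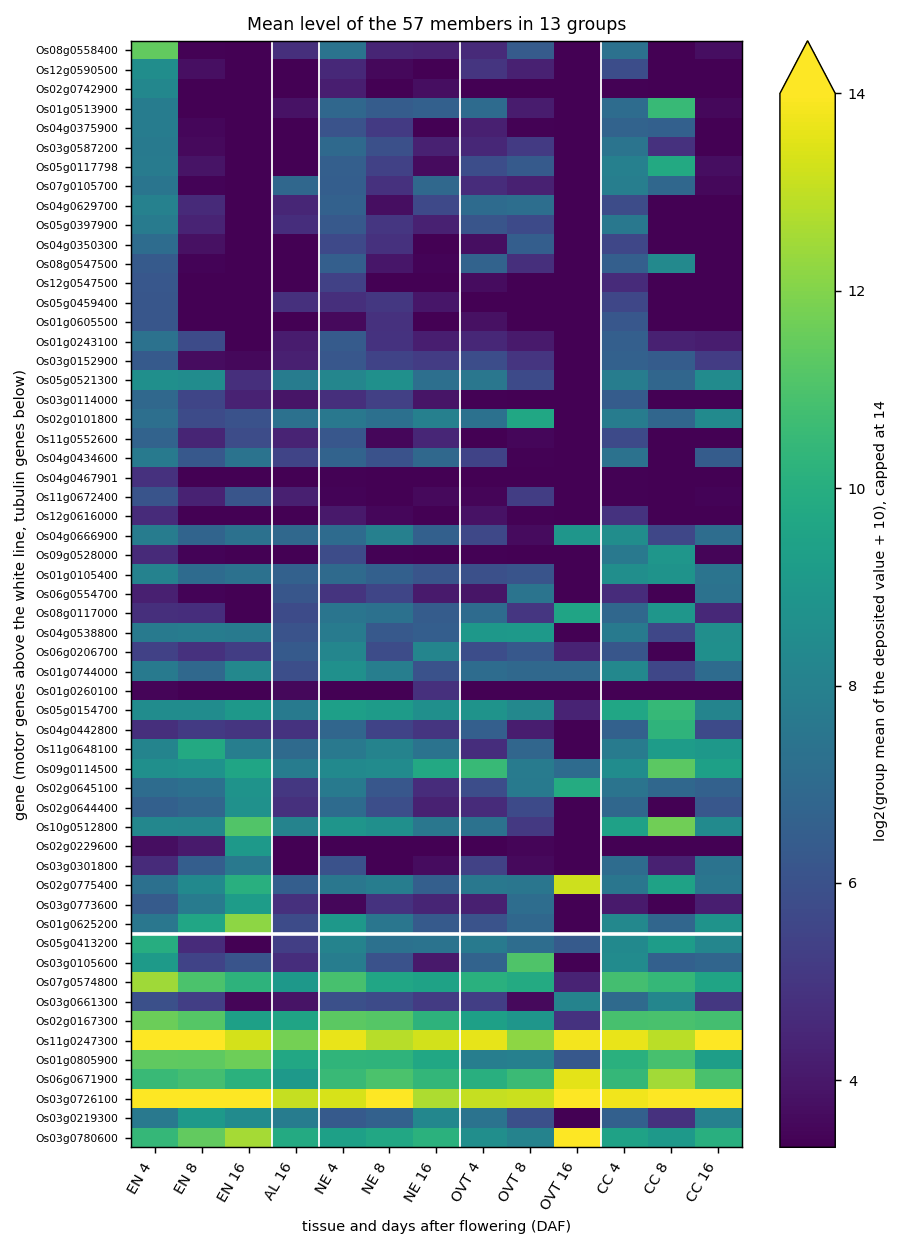
Mean level of the 57 members (rows) in the 13 groups (columns, by tissue and DAF), as the log2 of the group mean plus 10, with the colour capped at 14. Motor genes stand above the white line and tubulin genes below it, each ordered by the change between EN of 4 DAF and later EN. The upper motor genes are bright in EN of 4 DAF and dark in EN of 8 and 16 DAF, and the lowest rows above the line show the opposite order.

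The first question of the design was which genes set the endosperm apart from the other tissues of the same stage. Against the mean of NE, OVT and CC at 4 DAF, 4 of the 57 members were higher in EN of 4 DAF and none was lower (limma on the log2 of the value plus 10, two-sided, Benjamini-Hochberg adjusted p under 0.05 over 27527 genes). Of all tested genes, 1.86% were called higher and 0.556% lower. At an unadjusted p under 0.05, 14 members were higher and 0 lower. The median log2 fold change was 1.18 over the members and -0.12 over all tested genes, and 71.9% of the members and 43.2% of all genes had a positive one. All 4 called members were motor genes. Among them, Os02g0742900 and Os04g0467901 entered the test through EN of 4 DAF alone and had to differ there. With voom on the estimated reads, the other tool run, 2 were higher.

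Os08g0558400 was the most abundant of the 4, with 2746 in EN of 4 DAF. At 4 DAF it had 72.2, 264.1 and 142.2 in NE, 27.12, 3.108 and 12.85 in OVT and 85.57 and 206.7 in CC. All 8 lay well below EN, with OVT the lowest tissue. The log2 fold change was 5.13 (SE 1.15, adjusted p = 0.0125), and the call was lost in 6 of 12 alternative fits, with an adjusted p of up to 0.282. In EN it had 0.8691 and 0 at 8 DAF and 0 in both 16 DAF libraries, so that the level at 4 DAF was not found in any later endosperm library. The log2 fold change over later EN was 8.08 (SE 1.21, adjusted p = 0.000166). AL of 16 DAF held 35.08, 15.15 and 0.2537.

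Os02g0742900 had 298.2 in EN of 4 DAF. Elsewhere it was at 0 in all but 4 libraries, at 4.609 and 21.41 in NE of 4 DAF, at 0.9724 in CC of 4 DAF and at 9.884 in NE of 16 DAF. It was thus found almost wholly in EN of 4 DAF, with traces in NE and CC. The log2 fold change over the other tissues was 4.68 (SE 0.44, adjusted p = 2.516e-07). All 4 later EN libraries were at 0, and against the highest level that 3 reads would have had in any of them (21.65, in MM22 of 8 DAF), EN of 4 DAF was at least 13.8-fold higher. This gene passed the filter on low values through EN of 4 DAF alone, so it had to differ there.

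Os12g0590500 had 369.5 in EN of 4 DAF. At 4 DAF it had 21.51, 16.65 and 2.123 in NE, 63.29, 1.554 and 0 in OVT and 38.9 and 57 in CC. In EN it had 0 and 7.216 at 8 DAF and 0 in both libraries of 16 DAF. Each of these was below EN of 4 DAF, and the nearest, OVT MM05, was lower by 5.84-fold. The log2 fold change was 3.69 over the other tissues (SE 0.79, adjusted p = 0.00825, lost in 4 of 12 alternative fits with an adjusted p of up to 0.245) and 5.05 over later EN (SE 0.83, adjusted p = 0.000489).

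Os04g0467901 was a low gene, with 18.34 in EN of 4 DAF. It did not exceed 1.536 elsewhere, and 23 of the other libraries were at 0. It too passed the filter through EN of 4 DAF alone and had to differ. Its log2 fold change on the scale of the value plus 10 was 1.46 over the other tissues (adjusted p = 0.000451) and 1.5 over later EN (adjusted p = 0.000508), and no fold is given, since its level lay below that of 3 reads in the later EN library MM22. None of these 4 genes had values that fell between whole reads, the mark of reads split between genes.

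The 4 DAF libraries with the number MM13 and the title prefix B included 1 of EN, 1 of NE and 1 of OVT, which gives a comparison within that number. EN exceeded the mean of NE and OVT for 47 of the 57 members (82.5%, against 52.0% of all tested genes), with a median log2 difference of 1.56 over the members and 0.07 over all genes. It was 5.55 for Os08g0558400, 4.95 for Os02g0742900, 5.11 for Os12g0590500 and 1.5 for Os04g0467901. These differences had the direction of the comparison over all libraries, and no test is possible with 1 library each. Set against NE alone 3 members were higher in EN of 4 DAF (1.39% of all tested genes were), against OVT alone 9 (3.51% were) and against CC alone 2 (1.2% were). NE and OVT have 3 libraries each and CC has 2, so these counts differ in power.

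The 3 members with the lowest log2 fold changes over the other tissues of 4 DAF were the motor genes Os08g0117000 (-1.95, SE 1.29), Os04g0442800 (-1.62, SE 1.10) and Os03g0301800 (-1.16, SE 1.40), none of which passed the test. Os08g0117000 had 17.29 in EN of 4 DAF, 66.06, 88.03 and 351.4 in NE, 286.0, 71.48 and 6.425 in OVT and 143.9 and 74.86 in CC. The EN value lay within the range of OVT. Os04g0442800, also at 17.29 in EN, was the only member below all 8 other libraries of 4 DAF, where 11.3% of the tested genes were, and 20 members were above all 8, where 16.1% were.

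**Figure D4:**
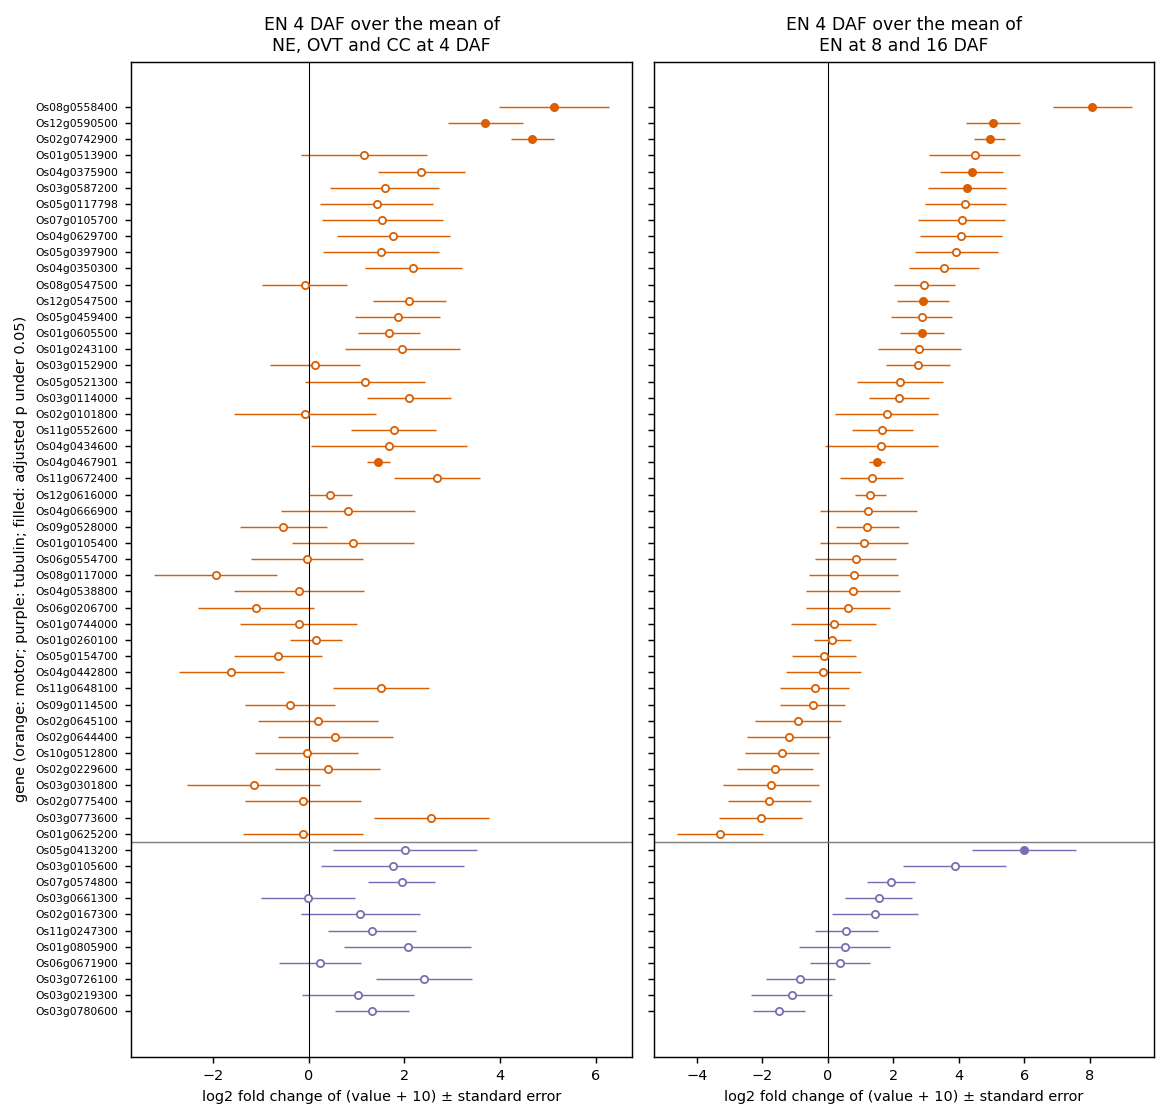
Log2 fold change with its standard error of each member in EN of 4 DAF over the other tissues of 4 DAF (left) and over EN of 8 and 16 DAF (right), for motor genes (orange, above the line) and tubulin genes (purple). Filled points had an adjusted p under 0.05, which 4 members did on the left and 9 on the right, all of them higher in EN of 4 DAF. Os02g0742900 and Os04g0467901, filled on both sides, had to differ by the filter on low values.

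The second question was how the genes of a tissue change over the stages. In EN of 4 DAF against the mean of EN at 8 and 16 DAF, 9 members were higher (8 motor, 1 tubulin) and none was lower, where 2.83% of all tested genes were called higher and 0.981% lower. At an unadjusted p under 0.05 there were 23 higher and 1 lower, and with voom 22 were higher. No share of all tested genes is given beside these counts, and with voom the median of all genes rose as well. The median log2 fold change was 1.34 over the members and 0.27 over all genes, while the shares with a positive one, 73.7% of the members and 69.4% of all genes, were close. In values without a test, 31 members had EN of 4 DAF above all 4 later EN libraries (54.4%, against 40.2% of all tested genes) and 6 had it below all 4 (10.5%, against 10.9%). The 2 comparisons share the EN library of 4 DAF, and the 4 motor genes called against the other tissues were among the 9. These include Os02g0742900 and Os04g0467901, which had to differ by the filter on low values.

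The other motor genes called in EN over the stages did not pass the test against the other tissues of 4 DAF. Os04g0375900, which also carries DNA repair and DNA binding terms, had 212.5 in EN of 4 DAF, 2.607 and 0 in EN of 8 DAF and 0 in both of 16 DAF (log2 fold change 4.39, SE 0.96, adjusted p = 0.00812). It had 12.29, 139.2 and 20.7 in NE and 58.83 and 133.6 in CC of 4 DAF, all below EN, and it was among the members above all 27 other libraries (log2 fold change over the other tissues 2.35, SE 0.91, adjusted p = 0.217). Of its 10 values under 100 reads, 5 were not whole reads, as arises where reads are split between genes, so its level is uncertain.

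Os03g0587200 had 198.6 in EN of 4 DAF, 4.346 and 0 at 8 DAF and 0 in both libraries of 16 DAF (log2 fold change 4.25, SE 1.20, adjusted p = 0.0453). NE and CC of 4 DAF reached 172.1 and 213.0, so that this gene was as high in other tissues of the stage. Without EN MM22 of 8 DAF its adjusted p was 0.105, and it missed the threshold in 15 of the 27 fits that left out 1 library. Os12g0547500 had 64.98 in EN of 4 DAF, at least 3.0-fold above the level of 3 reads in later EN, where it was at 0 in all 4 libraries (adjusted p = 0.0416, and 0.085 without EN MM22 of 8 DAF). NE MM06 of 4 DAF had 95.16 and the other NE libraries of that stage had 0.

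Os01g0605500 had 62.89 in EN of 4 DAF and 0 in all 4 later EN libraries, at least 2.9-fold higher (adjusted p = 0.0142). CC of 4 DAF was at a like level with 55.43 and 72.31, while NE and OVT of 4 DAF did not go beyond 6.575. The called tubulin gene, Os05g0413200, had 1007 in EN of 4 DAF, 17.96 and 12.03 in EN of 8 DAF and 0.3259 and 0 in EN of 16 DAF (log2 fold change 6.0, SE 1.58, adjusted p = 0.0316, and 0.0705 without EN MM22 of 8 DAF). In NE it had 255.5, 361.6 and 168.8 at 4 DAF, 38.79, 228.0 and 175.7 in NE of 8 DAF and 58.13, 0.5035 and 409.2 in NE of 16 DAF, and the difference between the stage changes of EN and NE did not pass the test (4.52, SE 1.87, adjusted p = 0.409). Of its values under 100 reads, 66.7% were not whole reads, so its level too is uncertain.

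**Figure D5:**
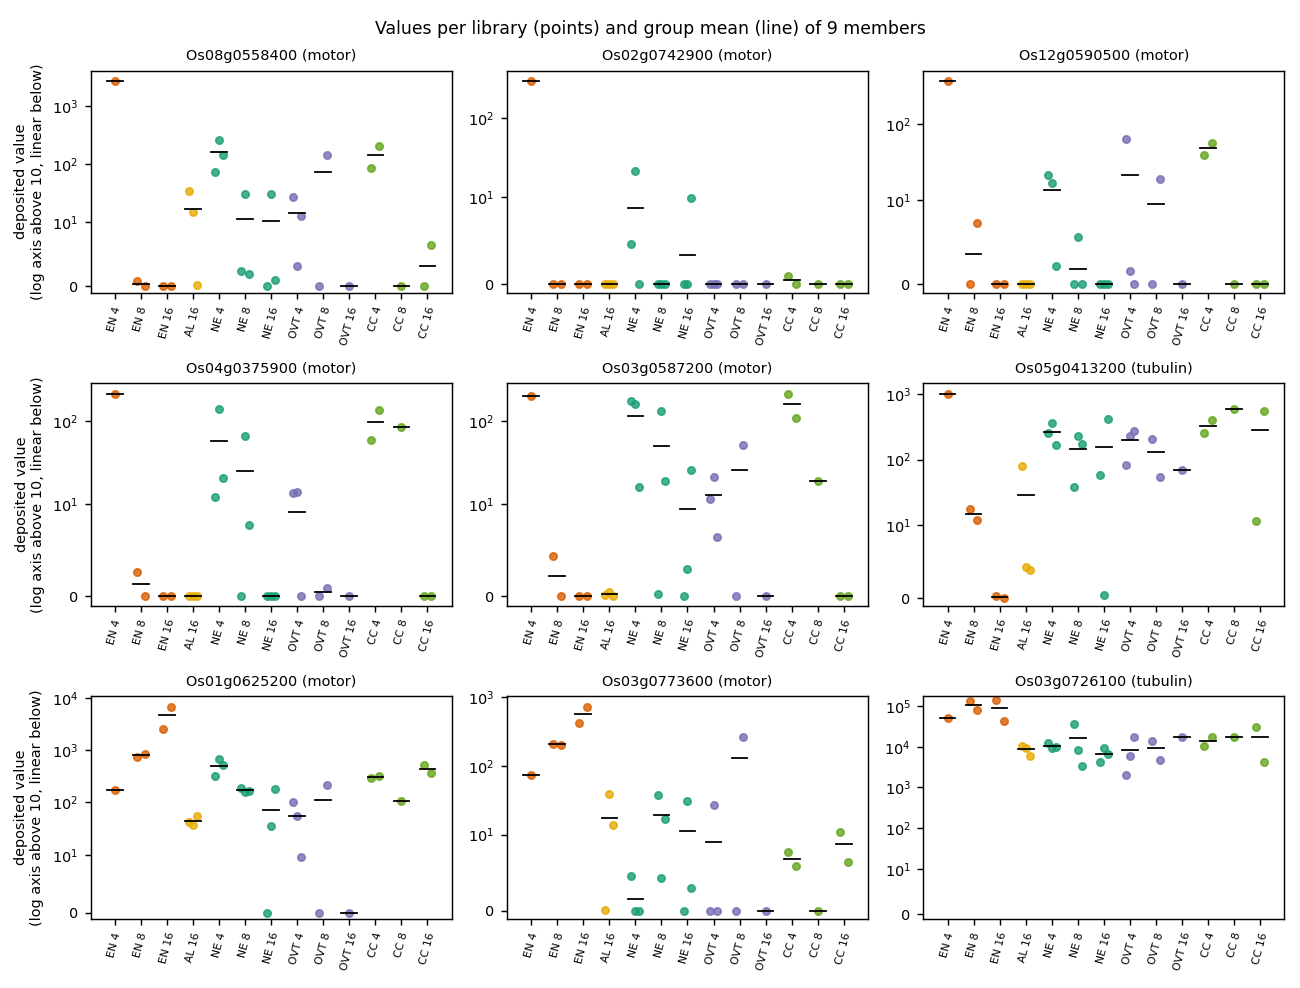
Values per library (points) and group means (lines) of 9 members in the 13 groups, on a log axis above 10 and a linear axis below. The upper 6 genes are high in EN of 4 DAF and at or near 0 in later EN, and Os01g0625200 and Os03g0773600 in the lowest panels are higher in EN of 8 and 16 DAF (731.8 to 6799 and 202.1 to 732.4) than of 4 DAF (175.6 and 74.94).

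Further motor genes had the same order of values without passing the test. Os01g0513900 had 214.6 in EN of 4 DAF and 0 in the 4 later EN libraries, at least 9.91-fold higher, with an adjusted p of 0.0718, and Os04g0350300 had 126.3 in EN of 4 DAF and at most 7.216 later, with an adjusted p of 0.0644. All 4 later EN libraries were at 0 for 8 of the 46 motor genes, and both EN libraries of 16 DAF for 22. Only 15 of the 46 motor genes were above 0 in all 4 later EN libraries. Among the 11 tubulin genes, 3 had a later EN library at 0.

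A few motor genes had lower values in EN of 4 DAF than in later EN, a share like that of all genes, and none passed the test between stages. The lowest log2 fold changes of EN at 4 DAF over later EN belonged to Os01g0625200 (-3.29, SE 1.33, adjusted p = 0.212), Os03g0773600 (-2.05, SE 1.26, adjusted p = 0.533) and Os02g0775400 (-1.78, SE 1.27, adjusted p = 0.645), none past the threshold. All 3, with the motor gene Os02g0644400 and the tubulin genes Os03g0219300 and Os03g0780600, were the 6 members whose value in EN of 4 DAF was below all 4 later EN libraries.

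Os01g0625200, the motor gene with the highest level per kilobase over the 13 groups (458.2), had 175.6 in EN of 4 DAF, 731.8 and 851.5 in EN of 8 DAF and 2516 and 6799 in EN of 16 DAF. The 3 stages of EN did not overlap. Against the other tissues of the same stage it was higher in EN of 8 DAF (log2 fold change 3.00, adjusted p = 0.0476) and of 16 DAF (6.16, SE 0.99, adjusted p = 0.000127), where NE had 0, 35.25 and 178.5 and CC had 521.7 and 359.5. In AL of 16 DAF it was at 41.55, 37.08 and 55.81, far below EN of the same stage (log2 fold change of AL over EN -6.26, adjusted p = 0.000625).

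Os03g0773600 had 74.94 in EN of 4 DAF, 211.2 and 202.1 in EN of 8 DAF and 428.6 and 732.4 in EN of 16 DAF. Outside EN it did not exceed 38.91 but for 1 OVT library of 8 DAF, with 260.0. At 16 DAF the log2 fold change over the other tissues was 5.27 (adjusted p = 0.000401). Os10g0512800, which also carries a zinc ion binding term, was at 299.2 in EN of 4 DAF and 318.1 and 267.0 in EN of 8 DAF, and higher at 16 DAF with 2559 and 1833 (log2 fold change over the other tissues of 16 DAF 5.05, adjusted p = 0.000206). It was higher still in the single CC library of 8 DAF, at 3290.

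In EN of 16 DAF 8 members were higher than in the other tissues of the stage (7.64% of all tested genes were) and 2 were lower (8.43% were). Besides the 3 motor genes above, the higher ones were the motor genes Os02g0644400, Os02g0229600 and Os11g0552600 and the tubulin genes Os03g0726100 and Os07g0574800. The mean they are set against holds the single OVT library of 16 DAF. Os07g0574800 had 11.12 in that library and 1605 and 766.9 in EN of 16 DAF. NE and CC of 16 DAF reached 1028 and 950.0, within the range of EN. Os02g0229600 rests on 1 library, with 1058 in EN MM18 and 0 in EN MM17, and it passed the filter through that library alone. Of the values of Os02g0644400 under 100 reads, 46.7% were not whole reads, which leaves its level uncertain. In EN of 8 DAF 6 members were higher (5.42% of all genes were) and 3 were lower (7.44% were). The higher ones were the motor genes Os01g0625200 and Os03g0773600 and the tubulin genes Os03g0726100, Os03g0219300, Os03g0780600 and Os11g0247300. The lower ones were the motor genes Os01g0513900, Os05g0117798 and Os08g0547500. The mean that EN of 8 DAF is set against holds the single CC library of 8 DAF, which had the fewest reads. The 3 lower genes had 1445, 874.7 and 313.8 there. In NE of 8 DAF Os08g0547500 had only 3.758 to 6.519, while Os01g0513900 had 20.05 to 115.2, against 0 in EN. With either EN library of 8 DAF left out, the number of higher members was 0.

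Set against EN of the same stage, AL of 16 DAF had 9 members lower (3.89% of all tested genes were) and 1 higher (6.62% were). The lower ones included Os01g0625200, Os03g0773600, Os02g0775400 and Os10g0512800 and the tubulin genes Os03g0726100 and Os03g0780600. The higher one was the motor gene Os07g0105700 (log2 fold change 3.5, adjusted p = 0.0402), of whose values under 100 reads 35.7% were not whole. Without 1 EN library of 16 DAF, MM17 or MM18, 5 members were lower, and without AL MM17 or MM18, 4. Between AL and NE of 16 DAF no member was called in either direction, as was none of all tested genes (0.0%), with limma, and at an unadjusted p under 0.05 there were 0 members higher and 1 lower in AL. AL MM17 and NE MM17 were close for several members, with 9150 and 9073 for Os03g0726100 and 594.2 and 589.7 for Os02g0167300. AL MM18 and NE MM18 were not, with 671.5 and 2949 for Os02g0167300. The test treats all these libraries as independent.

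The tubulin genes held the highest levels per kilobase. The 5 highest members over the 13 groups were all tubulin genes: Os03g0726100 with a mean of 18570 per kb, Os11g0247300 with 13850, Os03g0780600 with 2411, Os06g0671900 with 1441 and Os02g0167300 with 996.0. The motor genes had at most 458.2 per kb. Os03g0726100 had values of 50620 in EN of 4 DAF, 135400 and 81840 in EN of 8 DAF and 140200 and 42490 in EN of 16 DAF, against at most 36620 in the 23 libraries of the other tissues. On this scaled value EN was thus above the other tissues in each of its 5 libraries, with no order over the stages. The share of all signal held by this gene was not compared. For the 11 tubulin genes together that share was lower in EN of 16 DAF than in CC of 16 DAF, so the order of tissues depends on the scaling. The gene passed the test against the other tissues at 8 DAF (log2 fold change 3.24, adjusted p = 0.00835) and at 16 DAF (2.85, adjusted p = 0.0134).

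Os11g0247300 had 29120 in EN of 4 DAF, 50850 and 39120 in EN of 8 DAF and 15250 and 4881 in EN of 16 DAF, where the 2 libraries lay among those of the other tissues. Os07g0574800 had 5670 in EN of 4 DAF, 2241 and 1725 in EN of 8 DAF and 1605 and 766.9 in EN of 16 DAF, and at 4 DAF NE reached 2243, OVT 1667 and CC 1957. Os03g0780600 went the other way, at 1377 in EN of 4 DAF, 3030 and 2547 in EN of 8 DAF and 8376 and 3524 in EN of 16 DAF. The tubulin genes thus did not share one course in the endosperm.

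In NE and CC few members passed the test between stages, while in OVT 7 were higher and 3 lower at 4 DAF (9.69% and 4.86% of all tested genes were). In NE of 4 DAF over later NE 2 motor genes were higher and none lower (2.97% of all tested genes were higher and 1.33% lower), a share near that of the table. At an unadjusted p under 0.05, 18 were higher and 0 lower, and with voom 12 were higher, and no share of all tested genes is given beside these counts. The median log2 fold change was 0.91 over the members and 0.06 over all genes. Os08g0547500 had 81.42, 107.1 and 65.81 in NE of 4 DAF, 6.519, 3.758 and 6.466 in NE of 8 DAF and 0, 0 and 2.427 in NE of 16 DAF (log2 fold change 2.85, SE 0.59, adjusted p = 0.00585). The 3 libraries of 4 DAF were above all 6 later ones. Os08g0558400, at 72.2, 264.1 and 142.2 in NE of 4 DAF, did not exceed 30.21 in later NE (log2 fold change 3.13, SE 0.76, adjusted p = 0.0186), so that this gene was higher at 4 DAF in both NE and EN. The count of 2 was 1 without NE MM06 of 4 DAF, 7 without NE MM21 of 8 DAF, 5 without NE MM18 of 16 DAF and 4 or 5 without OVT MM21 or MM22 of 8 DAF.

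The difference between the stage change of EN and that of NE was itself tested. It passed for 3 motor genes, in each of which the change was larger in EN (0.821% of all tested genes had a difference in that direction and 0.138% in the other). These were Os02g0742900 (difference of log2 fold changes 4.38, SE 0.55, adjusted p = 4.308e-05), Os12g0590500 (4.04, SE 0.98, adjusted p = 0.0429) and Os04g0467901 (1.45, SE 0.29, adjusted p = 0.00999). Os02g0742900 and Os04g0467901 entered the test through EN of 4 DAF alone, which fixes a larger change in EN, so their calls are a description. Os12g0590500 lost its call in 5 of 9 alternative fits (adjusted p up to 0.497) and Os04g0467901 in 5 of 9 (up to 0.514). Os12g0590500 also missed the threshold without 1 or another library in 15 of 27 fits, with an adjusted p of up to 0.129 without NE MM13 of 4 DAF. With voom none of the 3 was called, and without OVT MM21 or MM22 of 8 DAF 5 members were.

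In CC of 4 DAF over later CC 4 motor genes were higher and none of the members lower (1.57% of all tested genes were higher and 0.636% lower), namely Os01g0605500, Os03g0114000, Os05g0397900 and Os12g0616000. At an unadjusted p under 0.05, 15 were higher and 1 lower. Os01g0605500 had 55.43 and 72.31 in CC of 4 DAF and 0 in the 3 later CC libraries (log2 fold change 2.88, SE 0.56, adjusted p = 0.00619). Os03g0114000 had 86.55 and 63.8 in CC of 4 DAF and 0 in the 3 later libraries. The groups of each gene did not overlap. Both CC libraries of 4 DAF have the title prefix X and all later CC libraries the prefix B. Stage and prefix therefore cannot be told apart in CC. Without 1 CC library, MM05 of 4 DAF or MM18 of 16 DAF, 1 member was called, without CC MM13 of 4 DAF, CC MM17 of 16 DAF, either EN library of 8 DAF or any AL library 2 were, and with the title prefix as a covariate 0 were.

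In OVT of 4 DAF over later OVT 7 members were higher and 3 lower (9.69% and 4.86% of all tested genes were), with a median log2 fold change of 0.38 over the members and 0.36 over all genes. The members lower at 4 DAF were the motor gene Os02g0775400 and the tubulin genes Os03g0780600 and Os06g0671900, and Os02g0775400 had 147.9, 356.6 and 54.62 at 4 DAF, 90.33 and 255.2 at 8 DAF and 9230 at 16 DAF. The 4 DAF and 8 DAF libraries overlapped and the single library of 16 DAF stood far above them. With OVT of 16 DAF and CC of 8 DAF left out, 0 members were higher in OVT of 4 DAF, and without OVT MM21 of 8 DAF 3 were. The 7 became 4 without OVT MM05 of 4 DAF, NE MM05 or MM13 of 4 DAF, EN MM20 or MM22 of 8 DAF, or AL MM04 or MM18.

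OVT was the tissue with the lowest motor genes at 4 DAF. Against the mean of EN, NE and CC at 4 DAF, 16 members were lower in OVT (5.61% of all tested genes were) and 1 was higher (6.07% were), and the median log2 fold change was -1.45 over the members and -0.20 over all genes. Of the 16, 15 were motor genes. The mean they are set against includes the EN library of 4 DAF, and the largest change, of Os08g0558400 (-4.13, adjusted p = 0.000941), was in a gene led by that library. Without OVT MM06, 8 members were lower, and without OVT MM13, 9. The member higher in OVT was the motor gene Os09g0114500, with 1022, 1339 and 2043 in OVT of 4 DAF, 389.9 in EN, 102.9, 471.1 and 405.5 in NE and 289.8 and 418.6 in CC (log2 fold change 2.05, SE 0.65, adjusted p = 0.0403). The 3 OVT libraries were above the 6 others of the stage.

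NE and CC of 4 DAF had few members apart from the other tissues. In NE 0 members were higher (0.381% of all tested genes were) and 1 was lower, Os01g0605500 (0.454% were). In CC 0 were higher (1.78% were) and 1 was lower, Os02g0742900 (0.338% were). At an unadjusted p under 0.05, 1 member was higher in NE and 3 in CC. Both were set against a mean that holds the EN library of 4 DAF. In the CC library of 8 DAF 8 members were higher than in the other tissues of the stage (7.44% of all genes were) and 0 lower (1.93% were, and 1 member at an unadjusted p under 0.05), among them Os09g0528000 (log2 fold change 5.54, adjusted p = 0.000201) and Os01g0513900, with 1445 in that library and at most 232.5 in any other. That library had the fewest reads of the series, 815250, and 3 reads there are worth 28.52.

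The later stages of the other tissues held few members apart from the table as a whole. In NE of 8 DAF 0 members were higher and 0 lower (1.49% and 1.58% of all tested genes were), with 2 and 3 at an unadjusted p under 0.05, and in NE of 16 DAF 0 were higher (5.03% were) and 3 lower (3.12% were), the motor genes Os02g0645100 and Os02g0775400 and the tubulin gene Os03g0780600, with 9 and 8 at an unadjusted p under 0.05. In OVT of 8 DAF 2 members were higher, the motor gene Os06g0554700 and the tubulin gene Os03g0105600 (5.76% of all genes were), and 5 were lower (4.08% were), led by the motor gene Os10g0512800 with 32.85 and 16.06 (log2 fold change -4.45, adjusted p = 0.00131). In the single OVT library of 16 DAF 5 were higher (9.06% were) and 7 lower (9.12% were), with the tubulin gene Os03g0780600 at 16920 and the motor gene Os10g0512800 at 0. In CC of 16 DAF 4 members were higher (6.24% were), the motor genes Os04g0538800, Os06g0554700 and Os11g0648100 and the tubulin gene Os02g0167300, and 2 lower (2.27% were), Os02g0775400 and Os03g0780600. The means that NE and CC of 16 DAF are set against hold the single OVT library of 16 DAF, in which Os02g0775400 (9230) and Os03g0780600 had their highest values of the series. Those for NE and OVT of 8 DAF hold the single CC library of 8 DAF, in which Os10g0512800 had 3290.

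Other genes of division and of the cytoskeleton, outside the 57 members, were counted in the same comparisons by their ontology terms. DNA replication had 9 of 55 tested genes higher in EN of 4 DAF than in later EN and none lower, with a median log2 fold change of 1.90, and 4 higher and 0 lower against the other tissues of 4 DAF, with a median of 1.13. Regulation of cell cycle had 4 of 20 genes higher and 0 lower over later EN (median 1.44) and 1 higher and 0 lower over the other tissues (median 0.87). Nucleosome assembly, which holds the histone genes, had 9 of 61 higher and 0 lower over later EN (median 1.63), but 1 higher and 3 lower over the other tissues (median 0.27). The motor genes had medians of 1.42 over later EN and 1.04 over the other tissues.

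The remaining lists were small. Of 9 genes of microtubule-based process 0 were higher and 1 lower over later EN, of 7 genes of microtubule cytoskeleton organization and 8 of cell cycle none was called, and of 8 further genes of protein polymerization 1 was higher and 0 lower, all with limma at an adjusted p under 0.05. Their medians over later EN were 0.31, 0.66, 0.88 and 1.26. Against the other tissues of 4 DAF none of these genes was called, and the medians were -0.34, 0.25, 0.05 and 1.16, so that protein polymerization had a median like that of the motor genes. In NE of 4 DAF over later NE, 7 DNA replication genes and 8 nucleosome assembly genes were higher and 0 of either list were lower, beside the 2 motor genes.

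Motor genes and tubulin genes also differed in features that the ontology term does not use. The deposited gene lengths were 1108 to 7755 bases for motor genes (median 2542) and 1057 to 1798 for tubulin genes (median 1611), against a median of 1158 for all genes of the table. The G and C content had a median of 46% in motor genes, 55.3% in tubulin genes and 53.9% in all genes.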

How the data were processed

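Laser-captured grain tissues were sequenced by the authors as single-end reads, mapped to IRGSP-1.0 with STAR and counted per gene; edgeR is also named in the submitters' processing notes, and versions are not given in the sources used here. The deposited signal values are read numbers scaled by a factor that is constant within a library. Of those under 100 reads, 86.5 to 95.7% were whole reads to within 0.03, and the others fell between whole reads, as arises where a read is split between genes. The mean log2 value over 3763 genes above 0 in every library was 8.28 to 8.29 in each library. One further signal column matched no sample and was not used (1 column). The fraction of G and C bases and the gene length, deposited by the authors in the same table, served only to describe genes and to give levels per kb. Ontology terms came from the same table.

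The log2 of each value plus 10 was fitted with limma 3.58.1 (R 4.3.3, statmod 1.5.0) as 13 group means, with moderated variances (trend and robust options of eBayes, 15 residual and a median of 8.87 prior degrees of freedom). Fold changes on this scale understate the change of low genes. Testing was limited to the 27527 of 45990 genes that exceeded a value of 10 and reached 10 estimated reads in the same library at least once. All 57 members passed, 4 of them through 1 library alone (Os01g0260100, Os02g0229600, Os02g0742900 and Os04g0467901). P-values were two-sided, with Benjamini-Hochberg adjustment over these 27527 genes. Counts at an unadjusted p under 0.05 and with voom are given without the share of all tested genes, so they cannot be set against the table. Estimated reads were 815250 to 97247991 per library (median 6868615), and bounds against values of 0 used 3 reads per library, which covers counting error only. Because values were not counts, the planned count test was replaced by limma, with voom on the estimated reads as an alternative. The members, gene lists, tests and markers were chosen with earlier results of these data known. Members were named if called in an EN 4 DAF comparison, if among the 3 lowest fold changes of one or the 5 highest levels per kb, if highest of all libraries in EN of 4 DAF, or if part of a count of 5 or fewer; others were named after their values were seen. The alternatives were other pseudocounts, scalings and filters, voom, a prior without trend, the library number as a block, the title prefix as a covariate, and leaving out each library; those against single tissues or stages and without 2 groups of 1 library were added after seeing the data. Planned lists by gene description, kinesin family and promoter sequence were not analysed here. The test was also run on simulated data, in which only genes of higher mean level were changed. That run does not cover genes at or near 0 in most libraries, and its outcome is not given here.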

Additional observations from a re-analysis of the deposited data

Results flagged for a closer look

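The change between 4 DAF and the later stages differed between EN and NE, by a test of that difference, for 3 motor genes. The difference of log2 fold changes was 4.38 for Os02g0742900, 4.04 for Os12g0590500 and 1.45 for Os04g0467901, in each of which the change was larger in EN. Os02g0742900 had 298.2 in EN of 4 DAF and 0 in the 4 later EN libraries, against 4.609, 21.41 and 0 in NE of 4 DAF and a highest later value of 9.884. For Os12g0590500 EN of 4 DAF had 369.5 and later EN at most 7.216, against 21.51, 16.65 and 2.123 in NE of 4 DAF and at most 5.637 later. Os04g0467901 had 18.34 in EN of 4 DAF and was at 0 in later EN, against 1.536, 0 and 0 in NE of 4 DAF. Os02g0742900 and Os04g0467901 passed the filter on low values through EN of 4 DAF alone, so a larger change in EN was fixed for them. All 3 rest on the single EN library of 4 DAF, and the part of that library in the differences was not tested. No group held more than 3 libraries, so single libraries that stand apart within a group were not tested.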

How the results depend on the processing

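No fold change of a member called in an EN of 4 DAF comparison, or in the difference between EN and NE, turned its direction under any alternative. Members called in the other comparisons were not followed gene by gene. Os08g0558400, Os12g0590500, Os04g0375900 and Os01g0605500 stayed past the threshold over later EN in all 11 alternatives run besides those that left out a library. Against the other tissues of 4 DAF, Os12g0590500 was called in 8 of 12 such alternatives and Os08g0558400 in 6. Os02g0742900 and Os04g0467901 had to differ by the filter and are not counted here. Scaling moved the median of all genes in EN of 4 DAF over later EN to 0.71 with upper-quartile factors, 0.90 with total signal and 2.54 with voom, against 0.27 in the values reported, and those of the members were 2.04, 2.53 and 4.08, against 1.34.

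The 4 members higher in EN of 4 DAF than in the other tissues became 2 with a pseudocount of 1, 7 with upper-quartile factors, 2 with total signal, 2 with voom, 9 against OVT alone and 2 against CC alone, and were 4 to 5 with 1 library left out. The 9 over later EN became 19 with upper-quartile factors and 22 with voom, and were 6 to 13 with 1 library left out, 6 without EN MM20 of 8 DAF. The 2 in NE became 1 with a pseudocount of 1, 7 with total signal, 12 with voom and 1 with the title prefix, and were 1 to 7 with 1 library left out. The 7 in OVT became 3 with a pseudocount of 30, 4 without the filter and 0 without CC of 8 DAF and OVT of 16 DAF, and were 3 to 8 with 1 library left out. The 4 in CC became 7 with upper-quartile factors, 8 with total signal, 1 with voom, 2 without the trend, 0 with the title prefix and 7 without those 2 groups, and were 1 to 6 with 1 library left out. The 3 with a difference between EN and NE became 1 with a pseudocount of 1, 6 with one of 30, 5 with upper-quartile factors, 1 with total signal, 1 with voom and 1 without the trend, and were 2 to 5 with 1 library left out. The 16 lower in OVT of 4 DAF became 26 with upper-quartile factors and 7 with voom (8 to 20 with 1 library left out), and the 6 higher in EN of 8 DAF became 10 with upper-quartile factors and 0 with total signal or voom (0 to 7 with 1 library left out). The 8 higher in CC of 8 DAF became 5 with upper-quartile factors and 4 with voom (6 to 9), the 8 higher in EN of 16 DAF 2 with total signal and 3 with voom (6 to 9), the 7 lower in OVT of 16 DAF 11 with a pseudocount of 1 (7 to 10), and the 9 lower in AL than in EN 3 with upper-quartile factors, 2 with total signal and 3 with voom (4 to 9). The causes of these changes were not tested.

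Library numbers recur across tissues, and libraries with the same number deviated together in some pairs but not in most. The highest correlation was between AL and NE MM17 of 16 DAF and the lowest between AL and NE MM18 of 16 DAF. Over 25 pairs the correlation of deviations was -0.195 to 0.461, 6 of them over 0.1, and 13 of 25 libraries correlated best with one of their own number. With the number as a replicate block, the counts were 4 in EN over the other tissues, 8 over later EN, 4 in NE, 2 in OVT, 2 in CC and 1 for the difference between EN and NE, 2 in EN of 8 DAF and 4 in CC of 8 DAF.

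The count test planned for these values was not run because they are not counts. At the level of 3 reads, a value of 0 allowed up to 21.65 in EN MM22 of 8 DAF, 28.52 in CC of 8 DAF and 33.36 in OVT of 16 DAF, so low motor genes were not detectable there at the level of Os04g0467901.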
